A study of Mus musculus with 2 samples.

Results

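The EGR1 peaks described here lay beside genes but away from their promoters. A peak was counted as gene-proximal when its centre was more than 2 kb and at most 10 kb from the nearest transcription start site (TSS) of GENCODE release M21, and when the centre was in no exon of a protein-coding gene. Of the 12014 peaks in the deposited list, 1700 (14.2%) met this rule, and 185 further peaks at the same distances were left out because they lay in coding-gene exons. The proximal peaks covered 421986 bp and were spread over 1539 nearest genes.

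EGR1 binding was measured by ChIP-seq, which pulls down DNA bound by a protein with an antibody and sequences it, in frontal cortex of male 129SvEv/C57BL/6N F1 hybrid mice (strain C57BL6N/129SvEv) at 6 weeks of age. The labels name no engineered allele and no agent but avertin, the anaesthetic given before dissection. Tissue from several mice was pooled for each of 2 ChIP experiments, whose peaks were merged into 1 list, and the cell types of the cortex were not separated. The second sample, input DNA of the same tissue, was not analysed here.

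EGR1 is a zinc finger transcription factor encoded by an immediate early gene, which neurons switch on within minutes of synaptic activity. Its zinc fingers read a GC-rich sequence of 9 bp, and many known EGR1 targets act at synapses. Regions a few kilobases from a TSS often hold enhancers, which raise transcription from a distance and commonly bind activity-dependent factors such as AP-1, the dimers of FOS and JUN proteins. The peak list gives a position and an irreproducible discovery rate (IDR) for each peak. The IDR is low for a peak that ranked high in both experiments, is read like a q-value, and carries no read count.

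Among the proximal peaks of low IDR, 4 with the complete EGR1 motif are shown first because they carry the sequence this factor is known to bind. The motif is GCGTGGGCG or GCGGGGGCG on either strand, and its 7-bp core is GTGGGCG or GGGGGCG, which by construction is part of every complete motif. Sequences are the plus strand of mm10, capitals mark the complete motif or its core, and a capital run may hold overlapping matches.
Hook2 (chr8:84986111-84986365): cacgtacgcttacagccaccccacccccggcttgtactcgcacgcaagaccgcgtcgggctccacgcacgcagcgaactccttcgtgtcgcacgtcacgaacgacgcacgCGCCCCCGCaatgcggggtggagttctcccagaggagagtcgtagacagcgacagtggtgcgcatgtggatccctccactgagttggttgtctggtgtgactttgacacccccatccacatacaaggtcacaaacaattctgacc
Stim2 (chr5:53995398-53995575): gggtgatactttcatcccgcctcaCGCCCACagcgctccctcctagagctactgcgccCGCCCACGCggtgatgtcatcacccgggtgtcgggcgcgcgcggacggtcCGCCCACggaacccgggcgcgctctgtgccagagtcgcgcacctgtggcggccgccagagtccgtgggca
Kcnn1 (chr8:70865655-70865804): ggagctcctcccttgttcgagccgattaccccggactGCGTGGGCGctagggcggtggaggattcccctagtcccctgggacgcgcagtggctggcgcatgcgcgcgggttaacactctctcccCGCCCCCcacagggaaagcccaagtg
Egr3 (chr14:70075046-70075282): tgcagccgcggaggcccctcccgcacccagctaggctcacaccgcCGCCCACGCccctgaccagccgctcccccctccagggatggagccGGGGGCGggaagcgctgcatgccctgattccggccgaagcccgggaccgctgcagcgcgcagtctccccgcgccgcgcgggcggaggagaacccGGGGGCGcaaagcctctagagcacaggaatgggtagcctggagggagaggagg
The Hook2 peak had the lowest IDR of all proximal peaks (5.33e-09) and held 1 complete motif, whose centre lay 13.0 bp on the lower-coordinate side of the peak centre. The Stim2 peak held 1 complete motif and 2 further copies of the core. The Kcnn1 peak, beside a potassium channel gene, held 1 complete motif and 1 separate core. In the Egr3 peak, which lay 2038 bp upstream of the gene for this EGR family member, 1 complete motif stood with 2 separate copies of the core.

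The next 4 peaks lacked a complete EGR1 motif and are shown to set AP-1 letters beside the core. Here capitals mark the EGR1 core and the AP-1 motif, TGAGTCA or its reverse complement TGACTCA.
Ier5l (chr2:30469856-30470061): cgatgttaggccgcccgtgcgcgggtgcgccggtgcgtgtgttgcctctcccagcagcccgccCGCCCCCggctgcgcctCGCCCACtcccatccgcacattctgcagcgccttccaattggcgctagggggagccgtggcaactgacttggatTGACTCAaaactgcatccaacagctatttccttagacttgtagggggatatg
Baiap2 (chr11:119991377-119991573): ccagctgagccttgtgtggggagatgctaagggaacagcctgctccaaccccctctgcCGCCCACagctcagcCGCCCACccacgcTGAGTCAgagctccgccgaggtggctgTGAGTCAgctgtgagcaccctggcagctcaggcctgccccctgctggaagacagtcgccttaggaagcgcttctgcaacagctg
Arc intron 1 (chr15:74670250-74670513): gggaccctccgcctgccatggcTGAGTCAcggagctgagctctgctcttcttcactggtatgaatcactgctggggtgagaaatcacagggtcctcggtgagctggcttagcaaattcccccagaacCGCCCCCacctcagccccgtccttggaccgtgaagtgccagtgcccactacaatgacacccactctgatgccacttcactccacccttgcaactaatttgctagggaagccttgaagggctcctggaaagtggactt
Arc far upstream (chr15:74679054-74679317): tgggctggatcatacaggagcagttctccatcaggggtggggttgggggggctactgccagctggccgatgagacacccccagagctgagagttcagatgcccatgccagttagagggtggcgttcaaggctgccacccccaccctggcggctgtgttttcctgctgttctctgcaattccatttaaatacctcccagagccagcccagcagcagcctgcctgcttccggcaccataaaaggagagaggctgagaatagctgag
Both the Ier5l and the Baiap2 peak held 2 copies of the EGR1 core, with 1 AP-1 motif in Ier5l and 2 in Baiap2. The peak in intron 1 of Arc, which encodes an activity-regulated protein that trims synaptic glutamate receptors, held 1 core and 1 AP-1 motif. Arc's far upstream peak held neither.

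The far upstream Arc peak lay 6616 bp from the TSS and had an IDR of 0.000143, the lowest of the 4 proximal Arc peaks. An activity-responsive enhancer of Arc is known several kilobases upstream of the gene, and whether the peak covers it was not tested. Of the EGR1, AP-1, CRE, MEF2, SP/KLF and NEUROD E-box motifs, only the NEUROD E-box CAGATG was found in this peak, at 1 site. Sites of the CTCF and RFX motifs were not listed for single peaks.

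Counts of proximal peaks fell with distance from the TSS. There were 330 peaks from 2 to 3 kb, 301 from 3 to 4 kb and 238 from 4 to 5 kb, and then 148 to 191 in each kilobase from 5 to 10 kb. Together 869 peaks lay within 5 kb and 831 beyond. The rule fixes the range of distances but not the counts within it. How much of the genome lies at each distance from its nearest TSS was not computed, so no preference is read from the fall.

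**Figure D1:**
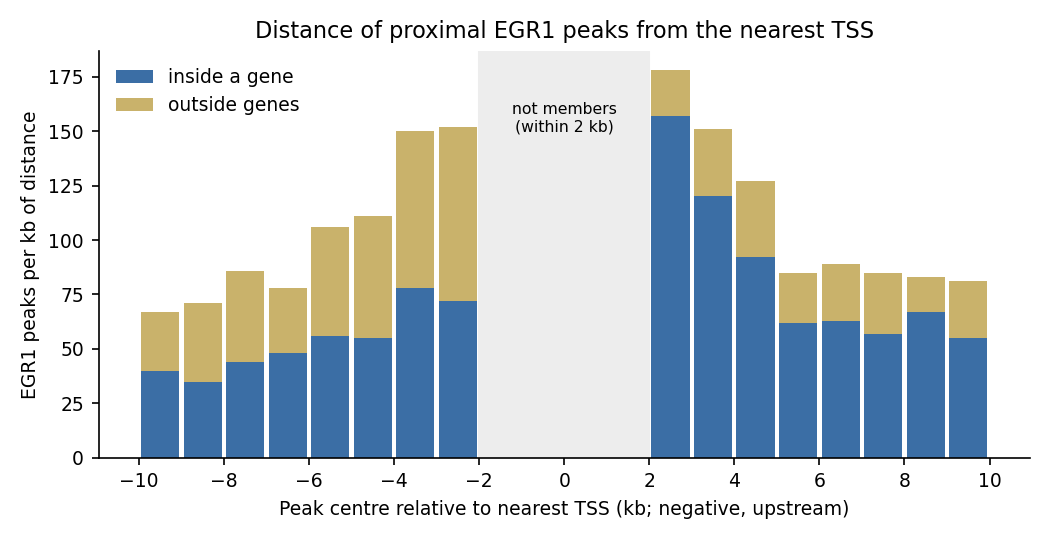
Number of proximal EGR1 peaks (y axis) in each kilobase of distance from the nearest TSS (x axis, kb, negative values upstream), split into peaks inside and outside annotated genes. The highest bar is the kilobase from 2 to 3 kb downstream, with 178 peaks, of which 157 lay inside genes.

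Upstream of the nearest TSS lay 821 peaks and downstream 879, or 51.7% (95% Wilson interval 49.3 to 54.1%), a share not distinguishable from an even split (2-sided exact binomial test, p = 0.167). With TSSs of basic transcripts alone the downstream share was 54.0% (p = 0.00150 by the same exact test). Downstream peaks made up 673 of the 1101 inside genes and 206 of the 599 outside. These counts carry no test, because sequence just downstream of a TSS is usually inside the gene.

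Genes held 64.8% of the proximal peaks, and 989 of the 1700 lay in protein-coding genes. An intron of the nearest transcript held 470 peaks, of which 318 (67.7%) were in the first intron and 97 in the second. The rule keeps peaks close to a TSS, and the first intron is the one next to it. No share of the available sequence was computed, so no preference is read from these counts. The nearest gene was protein-coding for 1059 peaks, a lincRNA gene for 159, a pseudogene for 172, an antisense RNA gene for 91 and a miRNA gene for 48. Because all of these have TSSs, 514 proximal peaks (30.2%) were more than 10 kb from every protein-coding TSS.

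The peaks next to the limits are given as a description. At 2 kb, the peak in intron 1 of Tcf4 (2002 bp, IDR 0.00349) and the Wbp1l peak (2004 bp, 0.00894) were inside the limit, whereas the Zfp36 (1997 bp, 0.000397) and Acot8 peaks (1996 bp, 0.00799) were outside. At 10 kb, the Gm16339 (9999 bp, IDR 4.19e-06) and Atg13 peaks (9979 bp, 0.00591) were inside. The Igsf21 (10007 bp, 0.00785) and Sgsm1 peaks (10010 bp, 0.00242) lay just beyond.

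The median width of the proximal peaks was 253 bp, with a range of 67 to 439 bp. Their median IDR was 0.00121, with quartiles of 4.19e-05 and 0.00657. The median GC content was 53.2%. The median observed/expected CpG ratio, which compares the number of CpGs with that given by the C and G content, was 0.293. Most mouse sequence has a low ratio because methylated CpGs mutate over time, and promoter CpG islands keep a high one. Peaks within 500 bp of a TSS had a median ratio of 0.792 and a GC content of 66.7%.

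Against the windows of equal width 5 kb to each side, the proximal peaks were richer in CpG. Against their 0.293, the flanks had a median CpG ratio of 0.210, and 1110 peaks exceeded the mean of their own flanks whereas 588 fell short of it (exact sign test, p = 3.30e-37). The median GC content was 47.7% in flanks and 53.2% in peaks, with 1345 peaks higher and 342 lower (exact sign test, p = 2.23e-140). Repeats covered less of the peaks, with a mean of 12.7% of bases soft-masked against 24.0% in the flanks, 511 peaks being higher and 1141 lower (exact sign test, p = 2.34e-55). Each of these directions was the same with flanks 2 kb away.

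The complete EGR1 motif was present in 120 proximal peaks, or 7.06% (95% Wilson interval 5.94 to 8.38%). In the flanks it was present in 3 windows to the left (0.176%) and 1 to the right (0.0588%). All 120 motif peaks lacked it in their left flank, against 3 flanks with the motif beside a peak without (exact McNemar test, adjusted p = 2.63e-31). Among peaks that were not CpG-rich, the excess was 3.96 percentage points over left and 4.10 over right flanks (exact McNemar test, p = 1.30e-15 and 7.05e-18). Among 32851 RefSeq promoter windows, from 250 bp before to 50 bp after each gene start, 3.47% held the motif, and among all EGR1 peaks on chromosomes 16.6% did. The form GCGTGGGCG occurred in 46 proximal peaks and GCGGGGGCG in 76.

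The shorter EGR1 core was present in 639 proximal peaks (37.6%) and in 3.76% of left and 3.41% of right flanks (exact McNemar test, adjusted p = 2.37e-134 and 4.66e-137). It was present in 21.8% of the promoter windows. Neither the core nor an AP-1 motif was found in 965 proximal peaks (56.8%).

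AP-1 motifs stood out less from the flanks than EGR1 motifs. They were present in 146 proximal peaks, or 8.59% (95% Wilson interval 7.35 to 10.0%), against 4.76% of left flanks (exact McNemar test, adjusted p = 2.40e-05) and 4.29% of right flanks (exact McNemar test, adjusted p = 1.11e-06). Among peaks with an IDR of 0.001 or less, the excess over left flanks was 2.47 percentage points (exact McNemar test, p = 0.0544). Over right flanks it was 2.59 points (exact McNemar test, p = 0.0396), so the 2 sides fell on either side of the threshold. Both a complete EGR1 motif and an AP-1 motif were held by 6 peaks. The EGR1 motif was in 4.11% of peaks with an AP-1 motif and 7.34% of the others (Fisher's exact test, adjusted p = 0.288).

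Motifs of other factors were also searched on both strands. The E-box CAGATG, bound by NEUROD and other neuronal bHLH factors, was in 455 proximal peaks (26.8%) and in 20.1% and 19.5% of the flanks (exact McNemar test, adjusted p = 6.39e-06 and 2.30e-06). GGGGCGGGG, read by SP and KLF factors and sharing letters with the EGR1 core, was in 113 peaks (6.65%) against 1.41% and 1.12% of flanks (exact McNemar test, adjusted p = 5.13e-15 and 3.21e-17). Rarer motifs with an excess over both flanks were those of MEF2 (CTAAAAATA or CTATTTATA, 22 peaks, adjusted p = 0.0331 and 0.0105), CTCF (22 peaks, 0.00149 and 0.00515) and RFX (18 peaks, 0.0127 and 0.00223), all by exact McNemar tests. Against right flanks at 2 kb instead of 5 kb, the MEF2 excess did not pass (exact McNemar test, p = 0.175). The complete CRE, TGACGTCA, to which CREB binds, was in 6 peaks, 5 left and 6 right flanks (exact McNemar test, adjusted p = 1.00 on both sides). Peaks had a higher GC content than their flanks, and the part of base composition in these motif counts was not tested.

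EGR1 motif sites were concentrated at the peak centres. Within 50 bp of the centre there were 109 sites, or 64.1 per 1000 peaks per 100 bp, which is 99.1 times the 0.647 found at 500 to 1000 bp. AP-1 sites within 50 bp numbered 65, or 38.2 per 1000 peaks per 100 bp, and were 1.98 times as dense as at 500 to 1000 bp (19.3). The EGR1 sites were not symmetric about the centre, with 83 in the 50 bp on the lower-coordinate side and 26 in the 50 bp on the other.

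**Figure D2:**
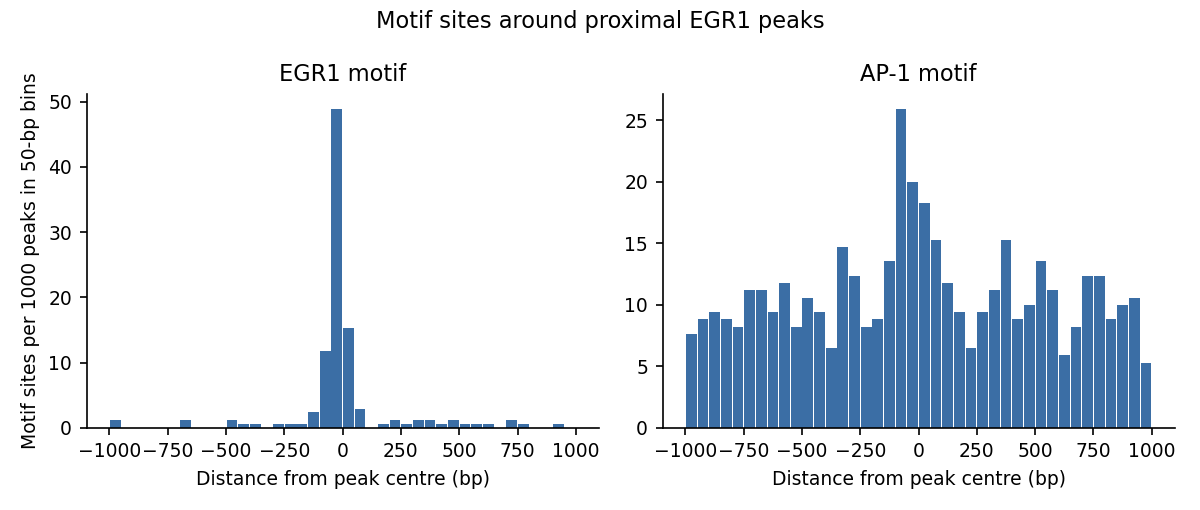
Sites of the complete EGR1 motif and of the AP-1 motif per 1000 proximal peaks (y axes, different scales) in 50-bp bins of distance from the peak centre (x axes, bp, negative towards lower coordinates). The EGR1 sites form a narrow maximum just below the centre, with 83 sites in the tallest bin, and the AP-1 sites a low broad one.

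Proximal peaks differed from those at the edges of promoters in EGR1 and AP-1 motifs, CpG-rich share and IDR, and from peaks over 10 kb from a TSS in fewer of these. The comparison classes were 1441 promoter shoulder peaks, over 500 bp and up to 2 kb from a TSS, 1248 deep intronic peaks, over 10 kb from a TSS and inside a gene, and 1142 distal intergenic peaks, over 10 kb from a TSS and outside genes. The complete EGR1 motif was in 7.06% of proximal peaks and 18.3% of shoulder peaks, a difference of -11.3 percentage points (95% Newcombe interval -13.6 to -8.94, Fisher's exact test, adjusted p = 4.21e-21). The share was 5.37% in deep intronic peaks (difference 1.69 points, -0.0992 to 3.42, Fisher's exact test, adjusted p = 0.103) and 6.22% in distal intergenic peaks (0.842 points, -1.07 to 2.66, adjusted p = 0.525). Among peaks that were not CpG-rich, the share was 4.16% in proximal and 10.6% in shoulder peaks (difference -6.41 points, Fisher's exact test, adjusted p = 5.50e-09), and the differences from deep intronic and distal peaks were -0.165 and -0.925 points (adjusted p = 0.901 and 0.408). With CpG-rich peaks included again, proximal peaks within 5 kb of the TSS had a share of 8.98%. It was above the deep intronic and distal shares of 5.37% and 6.22% (Fisher's exact test, adjusted p = 0.00334 and 0.0315).

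CpG-rich sequence, with a CpG ratio of at least 0.6 and a GC content of at least 50%, made up 186 proximal peaks (10.9%). Shoulder peaks had a higher share (37.6%, difference -26.7 points, Fisher's exact test, adjusted p = 8.84e-70) and deep intronic peaks a lower one (3.69%, difference 7.26 points, 95% Newcombe interval 5.42 to 9.07, adjusted p = 3.45e-13). The distal intergenic share was 8.76%, with a difference of 2.18 points (-0.0786 to 4.36, Fisher's exact test, adjusted p = 0.103). The difference from distal peaks passed Fisher's exact test with TSSs of basic transcripts (4.60 points, adjusted p = 0.000335) and within 5 kb (3.33 points, 0.0291). With protein-coding TSSs (1.00 points, Fisher's exact test, adjusted p = 0.522) and beyond 5 kb (0.991 points, 0.615) it did not pass. Neither did it with an IDR of 0.001 or less (4.25 points, Fisher's exact test, adjusted p = 0.0699) or a ratio of at least 0.75 (1.36 points, 0.158).

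An IDR of 0.001 or less was found for 811 proximal peaks (47.7%) against 56.3% of shoulder peaks (Fisher's exact test, adjusted p = 3.96e-06). Deep intronic peaks (46.9%, difference 0.831 points, 95% Newcombe interval -2.82 to 4.47) and distal intergenic peaks (46.6%, 1.12 points, -2.62 to 4.85) had shares that could not be told from it (Fisher's exact test, adjusted p = 0.724 and 0.641).

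AP-1 motifs were more frequent in proximal than in shoulder peaks, 8.59% against 5.41% (difference 3.18 points, 95% Newcombe interval 1.38 to 4.95, Fisher's exact test, adjusted p = 0.00118). Among peaks neither CpG-rich nor with a complete EGR1 motif the difference was 2.12 points (-0.267 to 4.33, Fisher's exact test, adjusted p = 0.143). It also did not pass among peaks with an IDR of 0.001 or less (2.59 points, Fisher's exact test, adjusted p = 0.0701) or for proximal peaks within 5 kb (2.18 points, adjusted p = 0.0578). No difference from deep intronic peaks (7.77%, difference 0.816 points, -1.22 to 2.79) or distal intergenic peaks (8.67%, -0.0808 points, -2.25 to 1.99) passed the test.

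**Figure D3:**
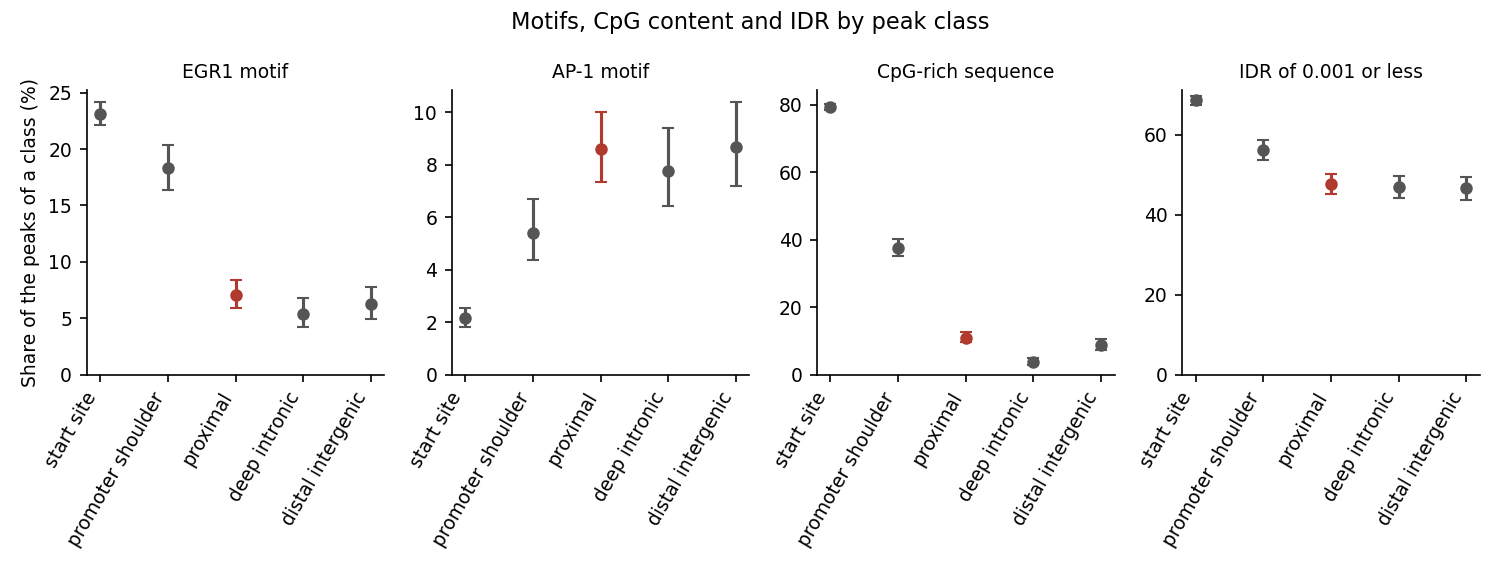
Share of the peaks of each class (y axes, percent, different scales) with a complete EGR1 motif, an AP-1 motif, CpG-rich sequence or an IDR of 0.001 or less; points are shares and bars are 95% Wilson intervals over peaks. The proximal peaks, in red, lie apart from the promoter shoulder in each panel, and above the deep intronic class in CpG-rich share (10.9% against 3.69%).

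Another EGR1 peak lay within 5 kb of 329 proximal peaks (19.4%), against 9.86% of deep intronic and 10.7% of distal intergenic peaks (Fisher's exact test, adjusted p = 2.26e-12 and 6.74e-10). Shoulder peaks had a higher share, 44.6% (difference -25.2 points, Fisher's exact test, adjusted p = 9.99e-52). Some of these neighbours lay at TSSs. By the rule, TSSs are closer to proximal peaks than to deep intronic and distal peaks, and closer still to shoulder peaks. Deep intronic and distal peaks lie over 10 kb from every TSS, so none of their neighbours within 5 kb can lie at one. The tests above thus follow in part from the class definitions, and no conclusion is drawn from them. When only neighbours more than 2 kb from TSSs were counted, the share was 9.65% in proximal peaks, 5.76% in shoulder, 9.86% in deep intronic and 10.7% in distal intergenic peaks. That count removes part of the 5-kb window of shoulder and proximal peaks by construction, so no test is drawn from it.

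For 467 proximal peaks (27.5%) the nearest gene also had another EGR1 peak within 500 bp of one of its TSSs, against 25.5% of all 12014 peaks. This share was 30.2% for deep intronic peaks (difference -2.74 points, 95% Newcombe interval -6.06 to 0.561, Fisher's exact test, adjusted p = 0.153) and 17.1% for distal intergenic peaks (difference 10.4 points, 7.31 to 13.4, adjusted p = 2.41e-10). A peak at any TSS of the gene counted, and the number of TSSs per gene was not held equal between classes. The classes also differ in how often the nearest gene is protein-coding. With a protein-coding nearest gene, the shares were 41.3% in proximal, 47.1% in deep intronic and 40.3% in distal intergenic peaks, and the proximal share was then the lower against deep intronic peaks (Fisher's exact test, adjusted p = 0.0271) and not distinguishable from distal ones (0.819).

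The 1700 proximal peaks were also compared among themselves, in a family of 18 comparisons chosen after values had been seen. A complete EGR1 motif was in 57 of 186 CpG-rich peaks (30.6%) and in 63 of 1514 others (4.16%), a difference of 26.5 percentage points (95% Newcombe interval 20.2 to 33.5, Fisher's exact test, adjusted p = 2.52e-25). Each form of the motif holds CpGs itself, which ties the measures to each other. An IDR of 0.001 or less was found for 73.3% of the peaks with a complete EGR1 motif and 45.8% of those without (Fisher's exact test, adjusted p = 1.82e-08). It was found for 71.0% of CpG-rich peaks and 44.8% of the others (Fisher's exact test, adjusted p = 1.09e-10). For AP-1 the shares were 42.5% with the motif and 48.2% without, a difference of -5.73 points (-13.8 to 2.75, Fisher's exact test, adjusted p = 0.292).

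By position, the EGR1 motif was in 8.98% of peaks within 5 kb of the TSS and 5.05% beyond (difference 3.92 points, 95% Newcombe interval 1.50 to 6.38, Fisher's exact test, adjusted p = 0.00615), which with TSSs of basic transcripts was 3.18 points (adjusted p = 0.0652). CpG-rich sequence made up 6.63% of the peaks inside genes and 18.9% of those outside (Fisher's exact test, adjusted p = 6.30e-13). The EGR1 motif was likewise less frequent inside genes, 5.81% against 9.35% (Fisher's exact test, adjusted p = 0.0223), with adjusted p = 0.190 for protein-coding TSSs and 0.260 for basic transcripts. Upstream and downstream peaks did not differ detectably in EGR1 motif (6.33% and 7.74%), AP-1 motif (9.26% and 7.96%), CpG-rich sequence (12.3% and 9.67%) or IDR of 0.001 or less (47.0% and 48.4%), with adjusted p from 0.197 to 0.611 (Fisher's exact test).

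In the 425 proximal peaks of lowest IDR, 15.8% held the complete EGR1 motif, against 5.18%, 4.47% and 2.82% in the following groups of 425. CpG-rich peaks made up 23.3% of the first group and 5.41% of the last. The core was in 49.6% of the first group and in 31.1% of the last, so it was present at every level of IDR. AP-1 motifs showed no such order, with 6.59%, 8.71%, 10.6% and 8.47%.

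**Figure D4:**
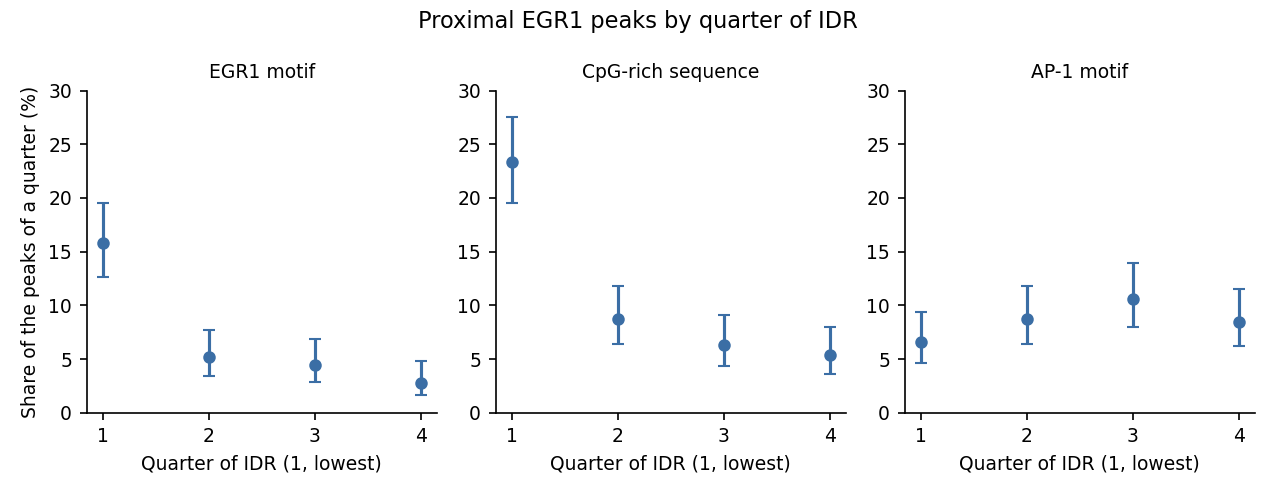
Share of proximal peaks (y axis, percent) with a complete EGR1 motif, CpG-rich sequence or an AP-1 motif in groups of 425 peaks ordered by IDR (x axis, 1 is lowest); points are shares and bars are 95% Wilson intervals over peaks. The EGR1 share falls from 15.8% to 2.82% and the CpG-rich share from 23.3% to 5.41%, and the AP-1 share stays between 6.59% and 10.6%.

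The proximal peaks of lowest IDR stood beside genes of varied function. After Hook2, a microtubule-linked adaptor, came the peak 5998 bp upstream of Cirbp, a cold-inducible RNA-binding protein (IDR 1.54e-08). The Ier5l peak lay 4260 bp downstream of the TSS of this immediate early response gene (IDR 1.59e-08). In intron 1 of Camk2a, the calcium-dependent kinase of excitatory synapses, a peak lay 3748 bp from the TSS (IDR 1.90e-08). These 4 peaks were 206 to 309 bp wide, and the Hook2 and Cirbp peaks held a complete EGR1 motif whereas the Ier5l and Camk2a peaks held the core.

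The other peaks of the 10 with the lowest IDR were beside protein-coding genes in 4 of 6 cases. Irs1, the insulin receptor substrate, had a peak in intron 1 at 7958 bp (IDR 2.01e-08). Baiap2, an actin scaffold of dendritic spines, had one 6196 bp upstream of a TSS and inside the gene (2.12e-08). The Stim2 peak, 3012 bp upstream of this sensor of endoplasmic reticulum calcium, had an IDR of 2.24e-08. The Mtus2 peak at 3572 bp (2.81e-08) held no EGR1 core. The lincRNA genes Mir670hg (8738 bp, 1.91e-08) and Gm45843 (8164 bp, 2.36e-08) were nearest to the remaining peaks, whose nearest protein-coding TSSs, of Ttc17 and Car7, were 89160.5 and 17270.5 bp away.

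Of the 1539 genes, 1408 had 1 proximal peak, 112 had 2 and 19 had 3 or more. Nav2, a neuron navigator gene that guides growing processes, had 6, with IDRs from 1.32e-07 to 0.0193. Peaks were counted over all TSSs of a gene, and those of Nav2 were spread from 49250010 to 49577456 on chromosome 7. Adgrb2, an adhesion receptor gene, had 5, of which the one in intron 1 held both a complete EGR1 motif and an AP-1 motif (IDR 1.81e-07). Arc, Dlgap3, Igsf9b, Kalrn, Nrxn2 and Synpo had 4 each. Lingo1, an inhibitor of myelination and neurite growth, had 3, and so did Loxhd1, a gene of hair cell stereocilia.

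In Nrxn2, which encodes a presynaptic adhesion molecule, 2 of the 4 peaks were 475 bp apart in intron 1, and the one with an IDR of 1.21e-06 held the complete EGR1 motif. Each of the 4 peaks of Dlgap3, a postsynaptic scaffold gene, lay in intron 1 of its own nearest transcript, at 2184 to 8159 bp and with IDRs from 9.00e-07 to 0.0172. The peak at 8159 bp was measured from another TSS of the gene. It began at 127211333 on chromosome 4, and the others at 127174938 to 127179550. Igsf9b, which encodes an adhesion molecule of inhibitory synapses, had all 4 peaks in intron 1, between 27302398 and 27307724 on chromosome 9. In Kalrn, a gene for a guanine nucleotide exchange factor of dendritic spines, the lowest IDR was 2.01e-07, at a peak of 155 bp with 0 CpGs. Its 4 peaks were spread from 34172971 to 34563932 on chromosome 16.

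Of 21951 protein-coding genes, 920, or 4.19%, were nearest to at least 1 proximal EGR1 peak. Among 315 genes in 14 lists of cortical genes, 53 were (16.8%). The lists hold well-annotated genes and were chosen with earlier results of these data in view. Genes with more annotated TSSs have more sequence within reach of the rule. The share was 1.90% among genes with 1 TSS, 3.17% with 2 to 4, 5.72% with 5 to 9 and 10.4% with 10 or more, and the median number of TSSs was 4 in the lists and 3 over all genes. Genes with an EGR1 peak at a TSS had a proximal peak in 6.57% of cases (95% Wilson interval 5.95 to 7.24%) and the others in 3.37% (3.10 to 3.65%). A peak at any TSS of a gene counted here, and the number of TSSs was not held equal between these groups.

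**Figure D5:**
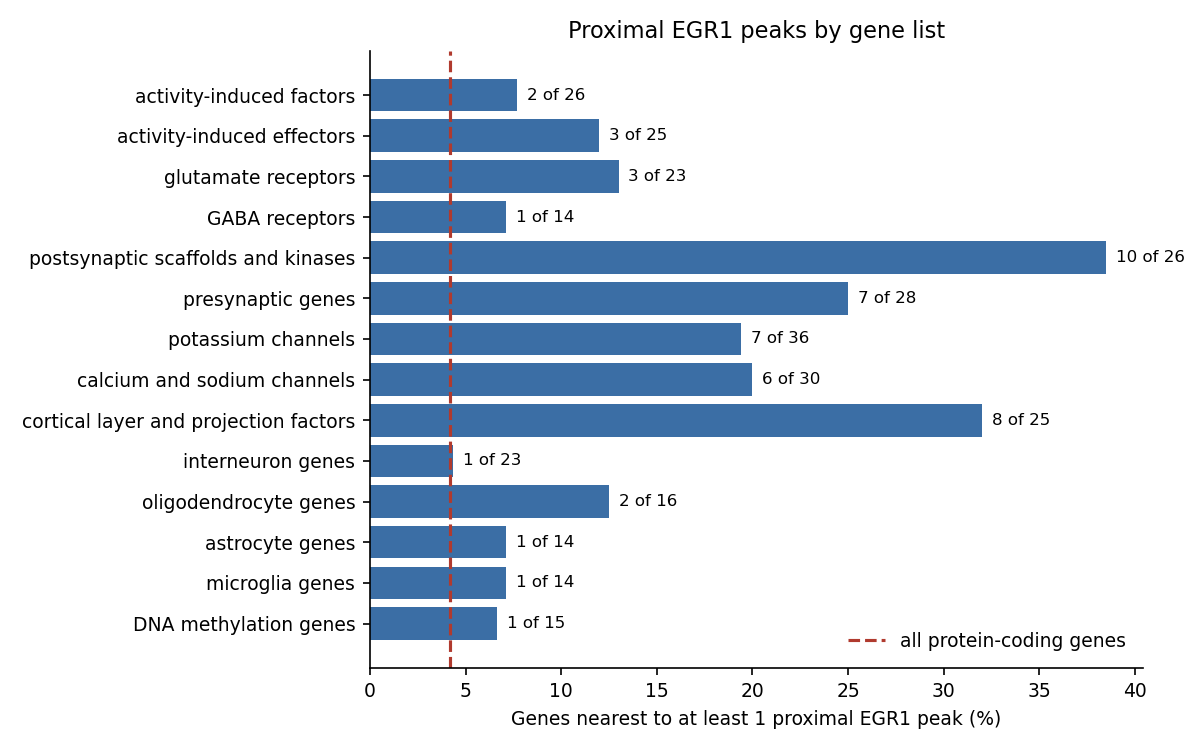
Share of the genes of each list (x axis, percent) that were nearest to at least 1 proximal EGR1 peak, with the counts beside the bars; the dashed line is the 4.19% of all protein-coding genes. The postsynaptic list has the highest share, 10 of 26 genes, and the interneuron list the lowest, 1 of 23.

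Postsynaptic scaffolds and kinases had the highest share, 10 of 26 genes (38.5%) with 21 peaks. This list also had the most TSSs, with a median of 10.0 per gene. Besides Camk2a and Baiap2, it held Dlg4, which encodes the scaffold PSD-95, with 2 proximal peaks (IDR 9.32e-08 and 1.51e-06) 379 bp apart. Synpo, which encodes an actin-binding protein of the spine apparatus, had its lowest IDR (1.39e-07) at a peak 3066 bp upstream of a TSS within the gene.

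Other synaptic lists had smaller shares. Presynaptic genes numbered 7 of 28, with the lowest IDR at Rims3, an active zone gene (2.29e-06), followed by the vesicle priming genes Unc13a (2.85e-05) and Unc13b (5.66e-05) and the calcium sensor gene Syt7 (6.80e-05). Of the glutamate receptor genes 3 of 23 had a proximal peak, the kainate receptor subunits Grik4 (5.61e-05) and Grik5 (0.00724) and the NMDA receptor subunit Grin2a (0.0181).

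Ion channel genes numbered 7 of 36 for potassium channels (19.4%) and 6 of 30 for calcium and sodium channels (20.0%). Kcnn1, a calcium-activated potassium channel, had the lowest IDR (3.39e-08), at the peak printed above with its complete EGR1 motif 2472 bp upstream of the TSS. Kcnip1 (8.76e-07) and Kcnc1 (7.10e-06 and 0.00114) were among the others. Among calcium and sodium channels the lowest IDRs were at Cacna1a (7.87e-06), Scn2b (0.000470), Cacna1b (0.00123) and Scn8a (0.00472), and none of these 4 peaks held a complete EGR1 motif.

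Transcription factors of cortical layers and projection neurons numbered 8 of 25 (32.0%). Foxp1 had a peak 3626 bp upstream of a TSS (2.64e-07), Mef2d 2 peaks (3.63e-07 and 2.10e-06) and Cux2, of upper layers, 2 (4.92e-05 and 0.000883). None of these peaks held the complete EGR1 motif, and those of Foxp1, the first of Mef2d and the second of Cux2 held the core.

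Over all protein-coding genes, 5666 had an EGR1 peak within 500 bp of a TSS, against the 920 with a proximal peak. Of 26 activity-induced factors 17 had a peak within 500 bp of a TSS and 2 had a proximal peak, Egr3 (7.13e-08) and Nr4a1, an orphan nuclear receptor (8.15e-06 upstream and 0.00198 in intron 2). The Egr3 peak was 472.5 bp from the next EGR1 peak and had 24 CpGs. Of 25 activity-induced effectors 13 had a start peak and 3 a proximal peak. These were Arc, Gadd45b, a gene of DNA repair and demethylation (2.22e-06), and Nptx2, a secreted binder of AMPA receptors (8.20e-06), whose peak held 0 CpGs. The start and nearby shares were not tested against each other.

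The interneuron list had 1 of 23 (Lamp5, IDR 0.0135), the oligodendrocyte list 2 of 16 (Cspg4, 0.00271 and 0.00547, and Mbp, 0.00378), the astrocyte list 1 of 14 (Slc1a2, 0.0175) and the microglia list 1 of 14 (Spi1, 0.00393 and 0.00428). The Spi1 peaks lay 620 bp apart, and 0 of the 14 genes had an EGR1 peak at a TSS. Among 15 genes of DNA methylation only Dnmt3a, a de novo methyltransferase gene, had proximal peaks (0.00110 and 0.0143). With 14 to 23 genes in each of these lists, 1 gene moves a share by several percentage points, and nothing is read from their counts.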

How the data were processed

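Reads of both ChIP experiments were trimmed, mapped to mm10 and called into peaks by the authors, who compared the replicates by IDR and deposited the merged peaks with an IDR of 2% or less, a value read like a q-value. The submitters' processing notes name Bowtie2 2.2.9 and bedtools 2.26.0. The deposited list holds no counts or replicate values, so depth is unknown, no spread between experiments exists, and every p and interval is over peaks of 1 list. Neighbouring peaks are not independent.

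The start column was taken to count from 0, as in BED, and positions are given from 1. Sequences came from RefSeq GRCm38.p6, which is the C57BL/6J reference, so 129SvEv alleles are not represented. The 76 scaffold peaks were left out of all classes. Flanks with unknown bases excluded 1 peak from composition tests. Fisher tests between classes (17) and motif tests against flanks (18) were adjusted by Benjamini-Hochberg within each family. The rule for named genes took the 10 lowest IDRs, genes with the most peaks (at least 3), up to 4 genes per list (a few are not reported here) and the peaks at the distance limits. Hook2, Stim2, Kcnn1, Egr3, Ier5l, Baiap2 and Arc sequences were chosen from these after their values were seen. The members and lists were chosen with earlier results of these data known. Python 3.11.15, scipy 1.17.1 and samtools 1.23.1 were used, and the scripts were tested on simulated data.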

Additional observations from a re-analysis of the deposited data

How the results depend on the processing

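For 42 results 206 alternatives were computed, and 179 were counted as unchanged, which for tested results means the same side of the threshold. Of these, 16 changed sign, in differences that did not pass the test under either setting. The number of proximal peaks has no test. It was 1292 with protein-coding TSSs, 1577 with TSSs of basic transcripts and 1714 with scaffolds, which were counted as unchanged. It moved to 811 with an IDR of 0.001 or less, 869 within 5 kb and 831 beyond. With TSSs of basic transcripts, the EGR1 motif against deep intronic peaks moved to 2.13 points, CpG-rich sequence against distal peaks to 4.60, and the downstream share to 54.0%. With proximal peaks within 5 kb only, the EGR1 motif difference was 3.61 (deep intronic) and 2.76 (distal), the CpG-rich one 3.33 (distal) and the AP-1 one 2.18 (shoulder, adjusted p = 0.0578, Fisher's exact test). With an IDR of 0.001 or less, the AP-1 calls were lost against shoulder peaks (2.59, Fisher's exact test, adjusted p = 0.0701) and left flanks (2.47, exact McNemar test, p = 0.0544). At this limit the call against right flanks stayed (2.59, exact McNemar test, p = 0.0396), and AP-1 gave -6.30 inside against outside genes among proximal peaks. Without CpG-rich and EGR1 motif peaks, AP-1 against the shoulder was 2.12. Among peaks not CpG-rich, the EGR1 motif gave -6.41 (shoulder), -0.165 (deep intronic) and -0.925 (distal).

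Another peak nearby differed from deep intronic and distal peaks by 0.975 and 0.147 points with proximal peaks beyond 5 kb, and by 1.95 and 1.54 with neighbours within 2 kb. With neighbours over 2 kb from TSSs, an alternative chosen after seeing the data, it reversed to 3.89 (shoulder), -0.209 (deep intronic) and -1.04 (distal), a count that by construction leaves out promoter neighbours and part of the window of shoulder and proximal peaks. The start peak share against distal peaks was 2.60 points with protein-coding TSSs and, chosen after seeing the data, 0.939 with a protein-coding nearest gene, for which it was -5.82 against deep intronic peaks. Except for those that change which peaks or neighbours are counted, the cause was not tested. No paired analysis was possible because the replicates are merged in 1 list, and for the same reason no replicate could be left out.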

Other observations

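EGR1 motif sites lay to one side of the proximal peak centres along the chromosome, whatever the strand of the motif. Over 136 sites in 120 peaks, the median offset was -19.2 bp (quartiles -40.0 and -3.50), and 95 peaks had their sites on the lower-coordinate side against 24 on the higher (2-sided exact sign test, p = 3.47e-11). Motifs on the plus strand had a median offset of -18.5 bp (42 peaks lower, 15 higher, exact sign test, p = 0.000460) and those on the minus strand -20.5 bp (54 lower, 12 higher, p = 1.69e-07). In the other classes the median was -15.0 bp for promoter shoulder, -17.2 bp for deep intronic, -17.5 bp for distal intergenic and -16.5 bp for start site peaks, so the offset was not particular to the proximal peaks. Moving each centre by 20 bp would take 3 of the 1700 peaks past the limits of 2 or 10 kb. The pattern was noticed in these data and then tested on them, and no explanation was tested.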
